A study of Mus musculus with 12 samples.

Results

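The T cell receptor complex and its signalling genes were examined in subcutaneous mouse mesothelioma tumours, as 34 genes chosen by their symbols out of the 35999 gene symbols measured. They comprise the CD3 chains, surface receptors that tune the signal, kinases, adaptors, effectors, negative regulators and 1 lineage transcription factor. All 34 genes were listed in the count table, and all 34 were among the 17940 genes with enough counts to be tested. The tumours came from the AB1-HA mouse mesothelioma line grown in male BALB/c mice aged 8 to 10 weeks. One group received PBS and the other received 100 µg of an anti-CD4 monoclonal antibody, on days -3, 0 and 7, with inoculation on day 0. Tumours were excised on day 9, giving 6 tumours in each group and 12 in all. All 12 tumours were of 1 cell line, and whole tumour RNA was sequenced, so no cell type was isolated.

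The antigen-binding chains of the T cell receptor cannot signal by themselves, and they rely on the CD3 chains, whose cytoplasmic tails carry tyrosine motifs. Lck, a kinase bound to the tails of CD4 and CD8, phosphorylates those motifs, Zap70 docks on them and phosphorylates the adaptors Lat and Lcp2 (SLP-76), and the assembled adaptors bring in phospholipase C gamma. Calcium then activates the NFAT factors, while diacylglycerol activates Rasgrp1 and protein kinase C theta, the latter leading through Bcl10 and Malt1 to NF-kappaB. In a solid tumour, the CD3 chains mark the T cells that have entered it, whereas several of the downstream enzymes are made by many other cells too.

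Total counts ran from 30.75 to 41.93 M in the PBS tumours and from 34.45 to 62.06 M in the anti-CD4 tumours, which were deeper (exact two-sided permutation test, p = 0.039). Levels are given below in CPM, the usual unit of counts scaled to a common library size (here with TMM factors), with the SD over 6 tumours. A gene was called changed at a Benjamini-Hochberg adjusted p under 0.05 over all 17940 tested genes in the edgeR quasi-likelihood test. Cd4, the antibody's target, measured 6.31 CPM in the PBS group and 1.31 CPM in the anti-CD4 group (log2 fold change -2.26, SE 0.28, adjusted p = 0.00298). The mesothelial marker genes Msln, Wt1, Upk3b and Pdpn summed to 124 to 170 CPM in the PBS tumours and to 132 to 192 CPM in the anti-CD4 tumours. Msln made up most of these sums, and of the 3 markers tested Pdpn was called higher (27.2 against 34.2 CPM, adjusted p = 0.0186). The labels tie no tumour to a separate mouse, so p-values measure the spread between these tumours.

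Of the 34 genes, 7 were called lower after anti-CD4 treatment and 0 were called higher, beside 2.33% of all tested genes lower and 2.95% higher. The 7 were the surface receptors Cd2, Cd5 and Slamf6, the kinase Zap70, the adaptor Sla2, and the negative regulators Ubash3a and Dgka. The fitted log2 fold change was negative for 31 of the 34 genes, 23 had an unadjusted p under 0.05, and the values ran from -2.18 to 0.10. Among the 3 genes with a positive value, 0 had an unadjusted p under 0.05 in edgeR, DESeq2 called 0 and limma voom called 1, Nfatc3. DESeq2 called 6.45% and limma voom 17.7% of all tested genes lower, so their calls below stand beside larger shares than those of edgeR. The median of all 34 genes was -0.78, beside a median of -0.0003263 over all tested genes. In 4 genes, Cd5, Cd6, Slamf6 and Zap70, every anti-CD4 tumour lay below every PBS tumour, which held for 1.19% of all tested genes. In bulk tumour RNA, fewer cells of a type and less RNA per cell cannot be told apart.

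**Figure D1:**
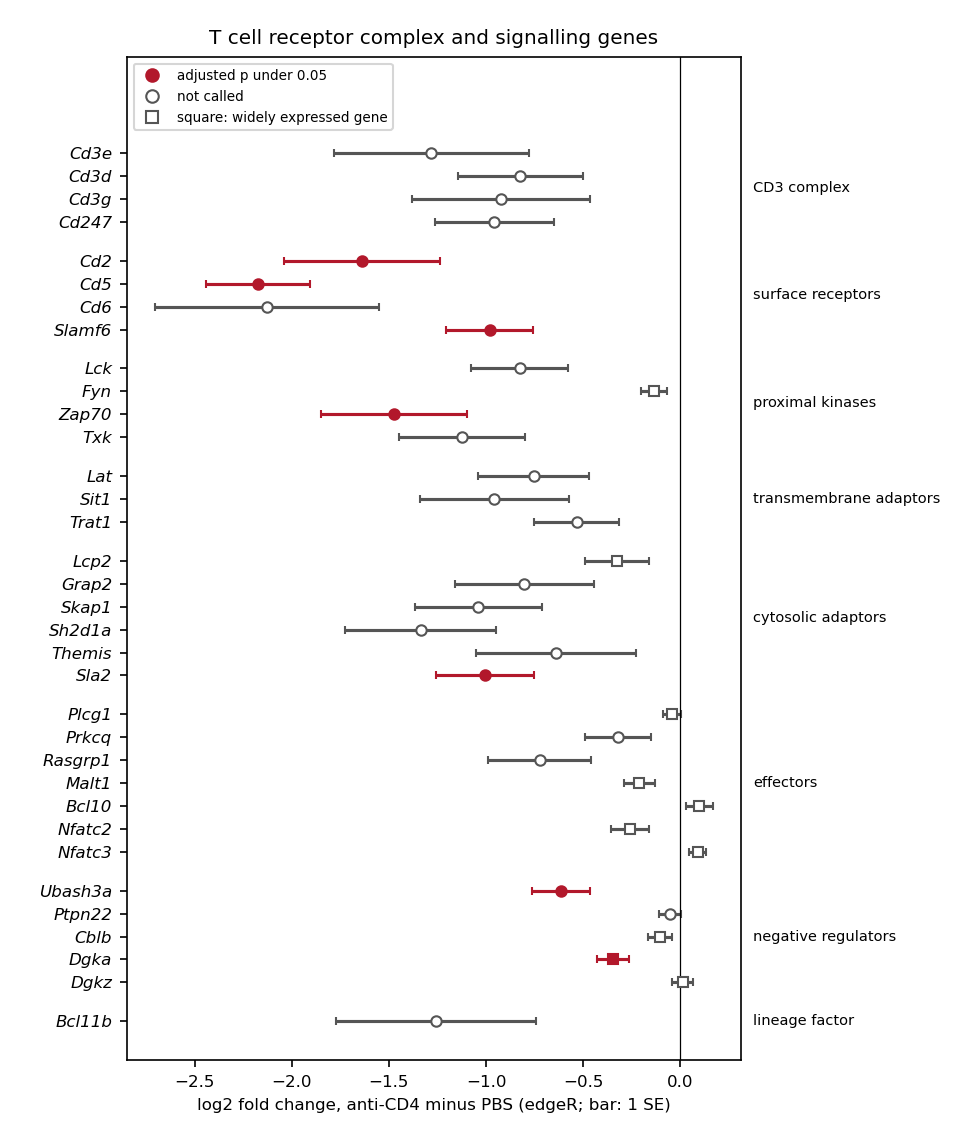
Log2 fold change (anti-CD4 minus PBS, edgeR) of each of the 34 genes on the horizontal axis, grouped by role; bars show 1 SE, filled symbols the 7 genes called lower and squares the 10 widely expressed genes. The values run from -2.18 for Cd5 to 0.10 for Bcl10, and the widely expressed genes sit near 0.

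The anti-CD4 tumours did not form a uniform group. The mean log2 CPM of the 4 CD3 chain genes was 1.58 ± 0.43 (SD, n = 6) in the PBS tumours and 0.44 ± 0.92 (SD, n = 6) in the anti-CD4 tumours. Anti-CD4 tumours 3 and 4 reached 1.23 and 1.61, within the PBS range of 1.17 to 2.29, while the deepest library, anti-CD4 tumour 6, had the lowest mean at -0.88. Tumours 3 and 4 were also the 2 highest of their group in 21 of the 34 genes, and PBS tumour 6 was the highest PBS tumour in 29 of 34. The counts of calls by role below are given with all 12 tumours and also without anti-CD4 tumours 3 and 4. Both tumours were singled out by their high levels of these same genes. Leaving them out thus tends to push the fitted changes lower by construction, and calls without them are no independent support. With anti-CD4 tumours 3 and 4 left out, 21 of the 34 genes were called lower and the median was -1.23, beside 3.86% of all genes called lower.

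Single tumours also decided how many of the 34 genes were called. The 7 calls became 1 without PBS tumour 3, without PBS tumour 6 or without anti-CD4 tumour 2, 5 or 6, with Cd5 the remaining call in each case, while the share of all genes called lower fell to between 0.171% and 0.522%. They became 2 without PBS tumour 2 and 4 without PBS tumour 5, beside 0.656% and 0.847% of all genes. They became 11 without PBS tumour 1, where 8.18% of all genes were called lower, and 12 without anti-CD4 tumour 4, where 1.98% were. When the model also held the log2 of each library's total, 1 of the 34 genes, Cd5, was called lower, beside 0.0279% of all genes.

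**Figure D2:**
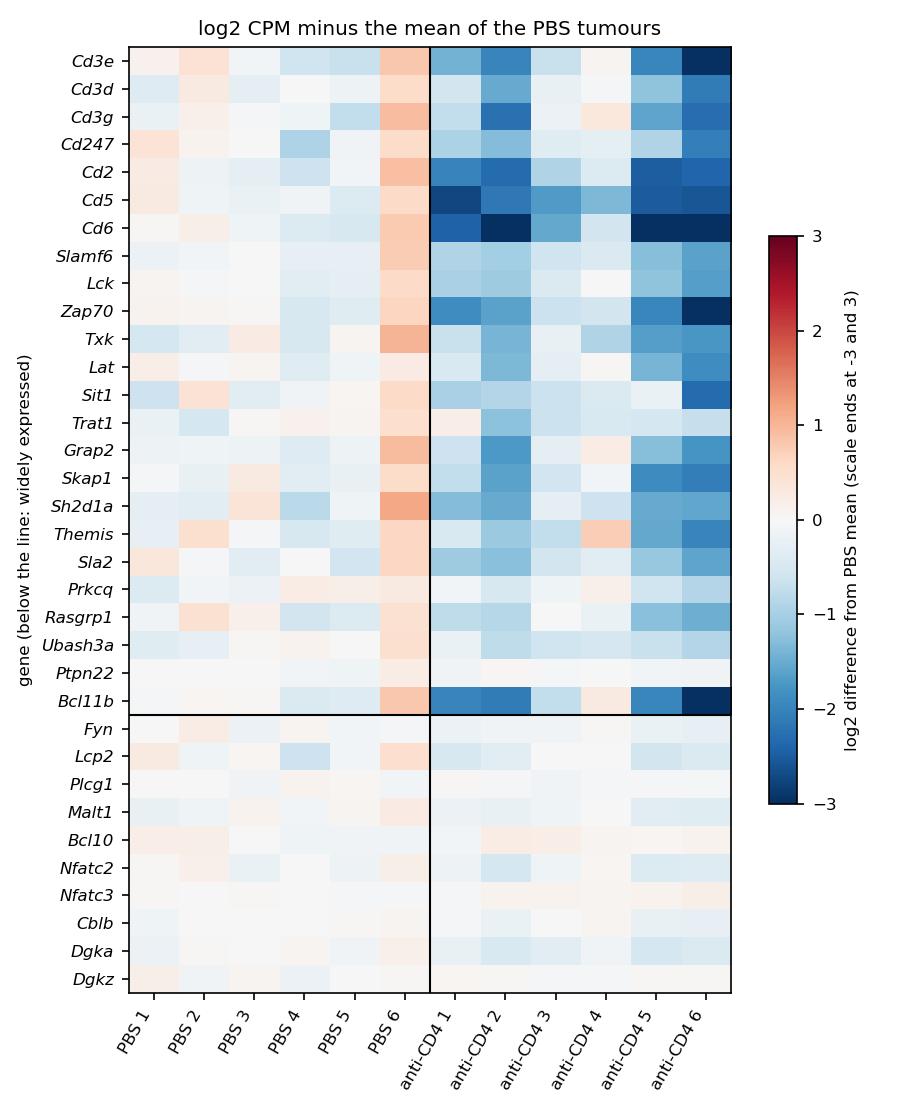
Log2 CPM of each of the 34 genes (rows; the 10 widely expressed ones below the line) in each of the 12 tumours (columns), centred on the gene's mean over the 6 PBS tumours; the colour scale is in log2 units and saturates beyond -3 and 3. Anti-CD4 tumours 3 and 4 are the 2 highest of their group in 17 of the 24 lymphocyte-centred genes.

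The receptor's own signalling chains were measured first. None of the 4 CD3 complex genes was called, all 4 fitted changes were negative, and 3 had an unadjusted p under 0.05 in edgeR. DESeq2 called 1 of them (Cd247) and limma voom all 4. Cd3e, the epsilon chain, which pairs with both the delta and the gamma chain, had a lowest, median and highest level of 4.76, 7.77 and 13.4 CPM in the PBS tumours and of 0.663, 2.38 and 8.10 CPM in the anti-CD4 tumours. The groups overlapped, because anti-CD4 tumours 3 and 4 lay within the PBS range. The mean was 8.18 ± 3.31 against 3.37 ± 2.70 CPM (log2 fold change -1.28, SE 0.50, adjusted p = 0.128).

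Cd3d, the delta chain, ranged over 2.23, 2.81 and 4.35 CPM (lowest, median and highest) with PBS and over 0.646, 1.62 and 2.88 CPM with anti-CD4 (log2 fold change -0.82, SE 0.32, adjusted p = 0.119). Cd3g, the gamma chain, ranged over 0.842, 1.35 and 2.76 CPM with PBS and over 0.255, 0.641 and 1.79 CPM with anti-CD4 (-0.92, SE 0.46, adjusted p = 0.204). Cd247, the zeta chain, which carries most of the complex's tyrosine motifs and also serves receptors of natural killer (NK) cells, ranged over 1.19, 2.39 and 3.43 CPM with PBS and over 0.527, 1.20 and 1.93 CPM with anti-CD4 (-0.96, SE 0.31, adjusted p = 0.0715). In each of the 3 genes the highest anti-CD4 tumours lay inside the PBS range. Without anti-CD4 tumours 3 and 4, all 4 chains were called lower, with log2 fold changes of -2.18 for Cd3e (adjusted p = 0.0142), -1.32 for Cd3d (0.0246), -1.79 for Cd3g (0.0243) and -1.36 for Cd247 (0.0262). Both tumours were left out for high levels of these same chains, so these p-values are no independent support. Cd247 shares 3007 exon bases with Pou2f1 on the opposite strand, and without a stated strand setting their reads cannot be told apart. Pou2f1 measured 71.1 CPM with PBS and 70.7 CPM with anti-CD4.

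The antigen-binding chains showed values of the same sign. Trac, the constant region of the alpha chain, fitted at -1.09 on the log2 scale (SE 0.40, adjusted p = 0.108), and the beta chain constant regions Trbc1 and Trbc2 had -1.47 (SE 0.45, adjusted p = 0.0683) and -0.86 (SE 0.42, adjusted p = 0.198). None of these 3 was called, and their near-identical sequences make the split of reads between Trbc1 and Trbc2 uncertain. Trdc, the delta chain of the gamma delta receptor, was called lower (0.797 against 1.64 CPM, -1.04, SE 0.27, adjusted p = 0.0413). The co-receptor Cd8a measured 4.57 CPM with PBS and 4.11 CPM with anti-CD4 (-0.15, SE 0.34, adjusted p = 0.794). Cd8b1 measured 1.15 CPM with PBS and 1.30 CPM with anti-CD4 (0.18, SE 0.51, adjusted p = 0.844).

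**Figure D3:**
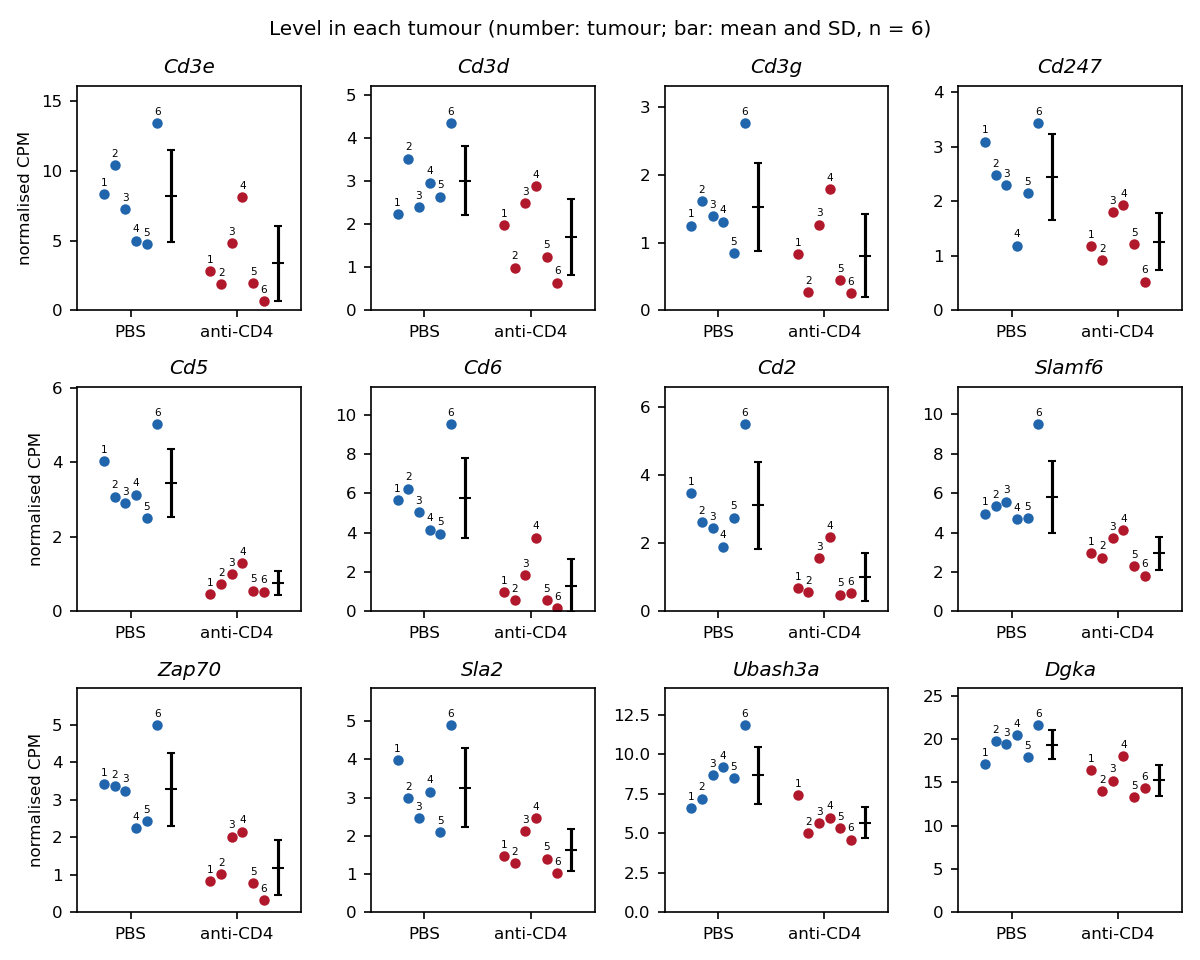
CPM in each tumour (points; bar and whiskers, mean and SD over 6 tumours) for the 4 CD3 chain genes, Cd6 and the 7 genes called lower, with PBS and anti-CD4 side by side and the lower whisker of Cd6 cut at the axis. Every anti-CD4 tumour lies below every PBS tumour for Cd5, whereas for Cd3e the groups overlap.

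The genes of the CD3 epsilon, delta and gamma chains lie together on chromosome 9, and the starts of Cd3d and Cd3g, which run in opposite directions, are 1355 bases apart. The promoters of these 3 genes are shown as the receptor's own chains, that of Cd5 as the gene most often called lower across the fits run, and that of Plcg1 as a widely expressed contrast. Each runs 5′ to 3′ on the gene's strand from 250 bases before to 50 bases after the start, from RefSeq on GRCm38.p6. Capitals mark AGGAAG or CTTCCT, called the ETS letters below. They are longer strings that hold the core recognised by ETS family factors, GGAA or TTCC on the other strand. The windows are chr9:45009562-45009861 (minus strand) for Cd3e, chr9:44981536-44981835 (plus) for Cd3d, chr9:44980382-44980681 (minus) for Cd3g, chr19:10738925-10739224 (minus) for Cd5 and chr2:160731060-160731359 (plus) for Plcg1.
Cd3e: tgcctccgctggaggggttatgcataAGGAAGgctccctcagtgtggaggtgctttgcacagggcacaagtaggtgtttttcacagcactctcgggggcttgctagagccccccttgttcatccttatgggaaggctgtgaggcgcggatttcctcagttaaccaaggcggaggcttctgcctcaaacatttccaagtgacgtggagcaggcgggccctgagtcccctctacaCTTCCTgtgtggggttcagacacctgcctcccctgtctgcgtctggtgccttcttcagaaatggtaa
Cd3d: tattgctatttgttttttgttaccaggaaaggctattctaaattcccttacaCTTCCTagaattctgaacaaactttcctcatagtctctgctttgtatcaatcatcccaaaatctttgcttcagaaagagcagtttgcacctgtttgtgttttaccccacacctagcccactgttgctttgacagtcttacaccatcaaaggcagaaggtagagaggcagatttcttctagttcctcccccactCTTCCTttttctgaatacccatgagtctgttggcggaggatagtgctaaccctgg
Cd3g: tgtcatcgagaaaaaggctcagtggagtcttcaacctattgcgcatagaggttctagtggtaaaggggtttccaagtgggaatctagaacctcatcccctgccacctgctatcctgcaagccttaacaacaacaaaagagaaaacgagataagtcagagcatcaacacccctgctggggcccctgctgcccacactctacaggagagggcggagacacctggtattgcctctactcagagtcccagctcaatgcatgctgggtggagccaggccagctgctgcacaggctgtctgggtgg
Cd5: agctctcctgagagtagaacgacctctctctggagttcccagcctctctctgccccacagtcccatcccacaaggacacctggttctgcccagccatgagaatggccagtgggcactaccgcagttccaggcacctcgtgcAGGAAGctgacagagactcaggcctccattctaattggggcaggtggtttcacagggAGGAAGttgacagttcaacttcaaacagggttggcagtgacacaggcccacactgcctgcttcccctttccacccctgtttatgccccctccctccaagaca
Plcg1: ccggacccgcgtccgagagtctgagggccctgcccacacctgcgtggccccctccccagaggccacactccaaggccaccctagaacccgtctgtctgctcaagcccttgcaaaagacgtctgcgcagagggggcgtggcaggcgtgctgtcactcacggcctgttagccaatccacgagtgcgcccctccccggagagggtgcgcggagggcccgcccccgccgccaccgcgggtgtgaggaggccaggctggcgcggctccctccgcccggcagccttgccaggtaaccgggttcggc

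The ETS letters occurred 2 times each in the Cd3e, Cd3d and Cd5 windows and 0 times in those of Cd3g and Plcg1. The Cd3g window does hold the shorter core, as GGAA and as TTCC. Promoter entries matched 29 of the 34 genes, and some genes had several starts, giving 41 entries in all. The ETS letters stood in 27 of the 41 entries (65.9%, 19 genes), beside 35.4% of all 32851 promoter windows of the same length. They stood in 12 of the 15 entries of widely expressed genes and in 15 of the 26 of lymphocyte-centred genes. The Plcg1 window was thus not typical of the widely expressed genes. Some windows of the same gene overlap, as for Dgka and Themis, so the entries are not independent. The letters TGTGGT or ACCACA, the core of RUNX factor sites, stood in 7 of the 41 (17.1%), beside 16.8% of all windows, and neither motif contains the other, although neighbouring matches can share a letter. The windows also differed in CpG dinucleotides, with 27 in that of Plcg1 and 8, 1, 4 and 3 in those of Cd3e, Cd3d, Cd3g and Cd5. The median was 20 over the 15 entries of widely expressed genes and 4.5 over the 26 entries of lymphocyte-centred genes, beside 7 over all windows. These matches describe letters only, and nothing was measured of factor binding.

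Surface receptors that act beside the T cell receptor held 3 of the 7 calls, and all 4 were called lower without anti-CD4 tumours 3 and 4. Cd5, a scavenger-receptor family protein that restrains receptor signalling, had a lowest, median and highest level of 2.50, 3.10 and 5.01 CPM with PBS and of 0.461, 0.639 and 1.29 CPM with anti-CD4. Every anti-CD4 tumour, 3 and 4 included, lay below every PBS tumour. The mean fell from 3.44 ± 0.92 to 0.759 ± 0.325 CPM, which is 22.1% of the PBS mean (log2 fold change -2.18, SE 0.27, adjusted p = 0.00298). Cd5 was the member called in each of the 12 fits that left out 1 tumour and in each of 11 other fits, with adjusted p-values up to 0.0118 and 0.0495.

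Cd6, the relative of Cd5 that binds the adhesion protein ALCAM, ranged over 3.95, 5.34 and 9.51 CPM with PBS and over 0.153, 0.780 and 3.76 CPM with anti-CD4. The groups did not overlap, although the highest anti-CD4 tumour came close to the lowest PBS tumour. Its log2 fold change was -2.13 (SE 0.58) and it missed the threshold (adjusted p = 0.0537), and without anti-CD4 tumours 3 and 4 it was called at -3.38 (adjusted p = 0.00228).

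Cd2, an adhesion receptor for CD48 in mice that is shared with NK cells, was called lower, with 1.91, 2.69 and 5.50 CPM (lowest, median and highest) with PBS and 0.489, 0.624 and 2.19 CPM with anti-CD4 (-1.64, SE 0.40, adjusted p = 0.0376). Slamf6, a receptor of the SLAM family that signals through Sh2d1a, was called lower as well, with 4.69, 5.15 and 9.49 CPM with PBS and 1.82, 2.85 and 4.12 CPM with anti-CD4 (-0.98, SE 0.22, adjusted p = 0.0323). The groups overlapped for Cd2 and did not for Slamf6, where PBS tumour 6 stood above the other PBS tumours. Cd2 kept its call in 5 and Slamf6 in 6 of the 12 fits that left out 1 tumour.

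Among the proximal kinases, 1 of 4 was called lower and all 4 fitted changes were negative. Without anti-CD4 tumours 3 and 4, 3 of 4 (Lck, Zap70 and Txk) were called lower. Zap70, the kinase that docks on phosphorylated CD3 tails, ranged over 2.25, 3.30 and 4.99 CPM with PBS and over 0.323, 0.926 and 2.15 CPM with anti-CD4. Its groups did not overlap (log2 fold change -1.47, SE 0.37, adjusted p = 0.0415), and the call held in 5 of the 12 fits that left out 1 tumour. Lck, the Src family kinase upstream of Zap70, measured 11.8 ± 2.92 against 6.68 ± 2.86 CPM and missed the threshold (-0.83, SE 0.25, adjusted p = 0.0657), and without anti-CD4 tumours 3 and 4 it was called at -1.25 (adjusted p = 0.00476). Txk, a Tec family kinase of T and NK cells, measured 5.03 against 2.32 CPM (-1.12, SE 0.32, adjusted p = 0.0563). Fyn, a Src family kinase made by many cell types, measured 51.6 against 46.9 CPM (-0.14, SE 0.07, adjusted p = 0.198).

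No transmembrane adaptor was called, and all 3 had negative fitted changes with an unadjusted p under 0.05 in edgeR. DESeq2 called 0 and limma voom 2 (Lat and Trat1). Lat, the scaffold that Zap70 phosphorylates, had the smallest p of the 3, with 3.19, 4.19 and 4.86 CPM (lowest, median and highest) with PBS and 1.09, 2.30 and 4.22 CPM with anti-CD4. The groups overlapped (log2 fold change -0.75, SE 0.29, adjusted p = 0.112), and without anti-CD4 tumours 3 and 4 Lat was the 1 transmembrane adaptor called lower (-1.22, adjusted p = 0.0172). Sit1, which recruits inhibitory phosphatases, rested on few reads, with 103 estimated counts summed over the PBS tumours and 63 over the anti-CD4 tumours (-0.96, SE 0.39, adjusted p = 0.128). Trat1, which associates with the receptor complex, measured 5.41 against 3.74 CPM (-0.53, SE 0.22, adjusted p = 0.130).

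Of the 6 cytosolic adaptors, 1 was called lower and all 6 fitted changes were negative. Of the 6, 5 were called lower without anti-CD4 tumours 3 and 4, Lcp2 being the exception. Sla2, an Src-like adaptor that dampens receptor signalling through the ligase Cbl, ranged over 2.09, 3.08 and 4.88 CPM with PBS and over 1.02, 1.44 and 2.47 CPM with anti-CD4. The groups overlapped, and the call (-1.01, SE 0.25, adjusted p = 0.0380) held in 6 of the 12 fits that left out 1 tumour. Sla2 shares 731 exon bases with Rab5if on the opposite strand, which measured 49.2 CPM with PBS and 51.0 CPM with anti-CD4, so its reads are uncertain.

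With all 12 tumours, the other cytosolic adaptors missed the threshold. Sh2d1a, the SAP protein that links SLAM receptors to Fyn, measured 0.715 against 0.285 CPM (-1.34, SE 0.39, adjusted p = 0.0563) and shares 1465 exon bases with Tenm1 on the opposite strand. Tenm1 measured more, 3.86 CPM with PBS and 1.999 CPM with anti-CD4 (-0.95, adjusted p = 0.0762). The Sh2d1a reads, and with them its fitted change, are therefore uncertain. Skap1, which couples the receptor to integrin adhesion, had a fitted log2 value of -1.04 (adjusted p = 0.0687), Grap2, the Gads protein that binds Lat to Lcp2, one of -0.80 (0.167), and Themis, a T-lineage regulator of receptor signal strength, one of -0.64 (0.316). Lcp2, the adaptor SLP-76 that myeloid cells also make, measured 32.4 against 25.9 CPM (-0.33, SE 0.17, adjusted p = 0.216).

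None of the 7 effectors was called, and 5 fitted changes were negative and 2 positive, with an unadjusted p under 0.05 for 3 in edgeR. DESeq2 called Rasgrp1 lower, and limma voom called Malt1, Nfatc2, Prkcq and Rasgrp1 lower and Nfatc3 higher. Rasgrp1, the diacylglycerol-controlled activator of Ras in T cells, had the smallest p, with 8.38, 12.6 and 17.0 CPM (lowest, median and highest) with PBS and 4.44, 7.01 and 12.3 CPM with anti-CD4. The groups overlapped (log2 fold change -0.72, SE 0.26, adjusted p = 0.106). Without anti-CD4 tumours 3 and 4, 2 of the 7 effectors were called lower, Rasgrp1 (-1.12, adjusted p = 0.0158) and Nfatc2 (-0.38, adjusted p = 0.0338). Prkcq, protein kinase C theta, was fitted at -0.32 on the log2 scale (SE 0.17, adjusted p = 0.230). The other 5 effectors stayed between -0.26 and 0.10, namely the calcium-responsive factors Nfatc2 (-0.26) and Nfatc3 (0.09), the NF-kappaB activators Malt1 (-0.21) and Bcl10 (0.10), and phospholipase C gamma, Plcg1 (-0.04), with adjusted p-values from 0.114 to 0.537.

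Of the 5 negative regulators, 2 were called lower, and 1 (Dgka) without anti-CD4 tumours 3 and 4. Ubash3a, a T cell phosphatase-like protein that limits Zap70 signalling, ranged over 6.60, 8.59 and 11.8 CPM with PBS and over 4.61, 5.50 and 7.41 CPM with anti-CD4 (log2 fold change -0.61, SE 0.15, adjusted p = 0.0365). Dgka, a kinase that consumes diacylglycerol, ranged over 17.1, 19.6 and 21.6 CPM with PBS and over 13.3, 14.8 and 18.0 CPM with anti-CD4 (-0.35, SE 0.08, adjusted p = 0.0361). The groups overlapped in both genes, and each call held in 5 of the 12 fits that left out 1 tumour. Ubash3a was also not called without anti-CD4 tumours 3 and 4 (-0.63, adjusted p = 0.0560). The phosphatase Ptpn22 (-0.05), the ubiquitin ligase Cblb (-0.10) and the diacylglycerol kinase Dgkz (0.01) had adjusted p-values of 0.564, 0.281 and 0.911, and the sign of Dgkz turned with the scaling or filter used. Bcl11b, the transcription factor that keeps T-lineage identity, ranged over 4.13, 5.56 and 9.77 CPM with PBS and over 0.510, 1.39 and 6.74 CPM with anti-CD4, with overlapping groups (-1.26, SE 0.51, adjusted p = 0.139). Without anti-CD4 tumours 3 and 4 it was called lower at -2.37 (adjusted p = 0.00298).

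The 34 genes differed by how widely they are expressed, as known from other tissues. Of the 10 genes also made widely outside lymphocytes, 1 (Dgka) was called lower and the median log2 fold change was -0.12, with 7 negative and 3 positive. Of the 24 lymphocyte-centred genes, 6 were called lower, all 24 were negative and the median was -0.96. Without anti-CD4 tumours 3 and 4, 2 of the 10 (Dgka and Nfatc2) and 19 of the 24 were called lower. The difference between these groups was not tested. Levels per kb of exon were higher for most of the widely expressed genes. Dgkz (20.97 CPM per kb), Plcg1 (17.5), Nfatc3 (16.9), Bcl10 (13.4) and Fyn (11.8) were highest in the PBS tumours. Ptpn22 (8.22) and Lck (4.04) were the highest of the genes listed as lymphocyte-centred. Ptpn22, at 55.7 CPM with PBS and 53.7 CPM with anti-CD4, resembled the widely expressed genes in level and change. Prkcq, also listed as lymphocyte-centred, had a change (-0.32) within the range of the widely expressed genes (-0.35 to 0.10). Cd3e (2.005) and Cd3d (1.66) lay lower, and Cd3g (0.468), Cd247 (0.458), Themis (0.191) and Sh2d1a (0.130) were among the lowest.

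To ask which genes changed out of step with the receptor complex, each gene was set against the mean log2 CPM of the 4 CD3 chain genes in the same tumour and tested with limma. Of the 30 other genes, 2 were called lower per CD3 level and 8 higher, beside 0.0613% and 71.3% of all tested genes. All tests share the same denominator, which itself was lower in the anti-CD4 group, so they are not independent. limma pools variance over all genes, and its SEs ran only from 0.44 (Grap2) to 0.52 (Sit1) over the 30 genes. These SEs and their p-values therefore hardly reflect each gene's own SD. From its own variance, the SE of Cd6 was 0.24 (adjusted p = 0.0479 in that ratio test). The counts were 2 lower and 14 higher without anti-CD4 tumours 3 and 4. The median difference was 0.35 over the 30 genes and 1.15 over all tested genes.

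Cd6 and Cd5 were the 2 genes lower per CD3 level. The log2 ratio of Cd6 was 0.89 ± 0.06 (SD, n = 6) with PBS, from 0.83 to 0.96, and -0.56 ± 0.58 with anti-CD4, from -1.43 to 0.32, with no overlap and a difference of -1.45 (SE 0.45, limma adjusted p = 0.0178). Cd6 thus followed the CD3 chains closely among the PBS tumours and lay lower in all 6 anti-CD4 tumours, and the call held in 9 of the 12 analyses that left out 1 tumour. The log2 ratio of Cd5 was 0.18 ± 0.26 with PBS and -0.83 ± 0.66 with anti-CD4, overlapping, with a difference of -1.02 (SE 0.46, limma adjusted p = 0.0388) that held in 2 of those 12. With Cd3e alone as the denominator, 0 of the genes were called lower. Cd2 (-0.60), Bcl11b (-0.50) and Zap70 (-0.47) had the next lowest differences and were not called by limma. In the ratio test with each gene's own variance, added after seeing the data, they were called lower too. Their adjusted p-values there were 0.0479, 0.0489 and 0.0479, close to the threshold.

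The 8 genes higher per CD3 level were Bcl10, Nfatc3, Dgkz, Plcg1, Ptpn22, Cblb, Fyn and Malt1, with differences from 0.94 for Malt1 to 1.25 for Bcl10, near the median of all genes. Of these, 7 are widely expressed. The remaining 20 genes, Lck (0.26) and Lat (0.26) among them, were called in neither direction by limma.

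**Figure D4:**
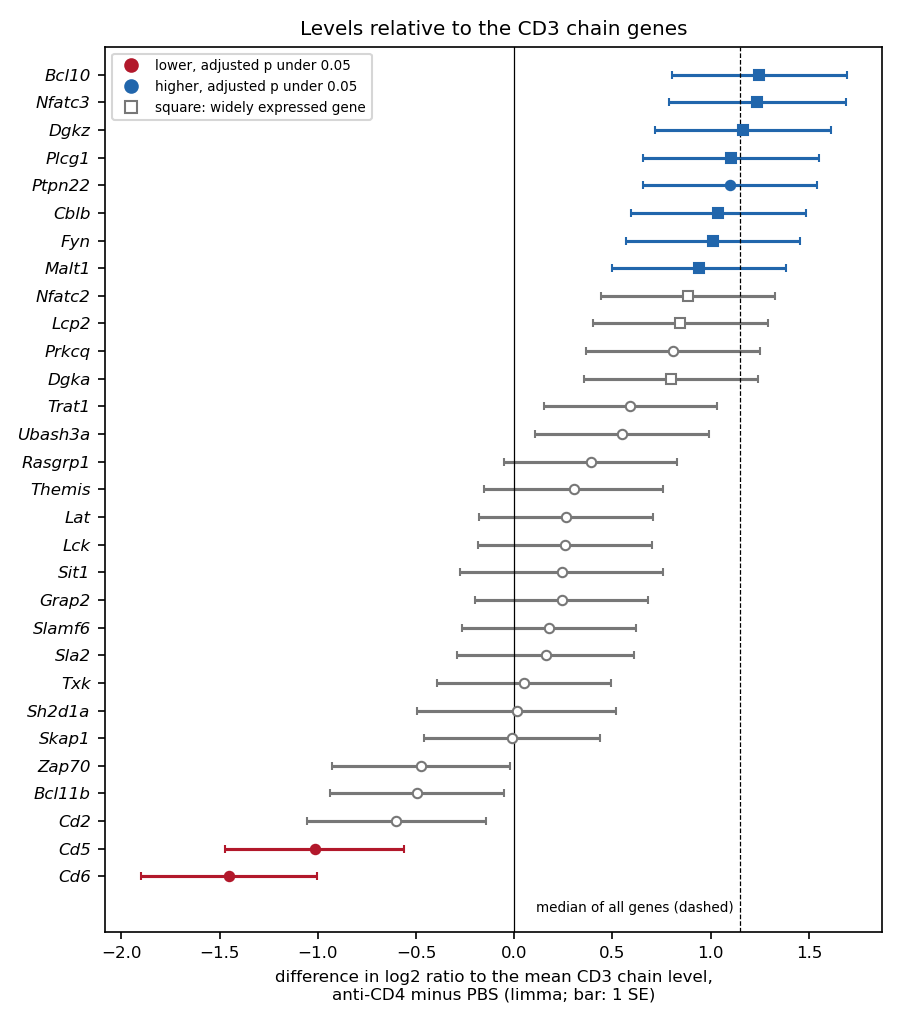
Difference (anti-CD4 minus PBS, limma) in each gene's log2 ratio to the mean CD3 chain level, for the 30 genes other than the CD3 chains. Bars show 1 SE with variance pooled over all genes, not each gene's own spread, and the median of all tested genes is dashed at 1.15. Cd6 (-1.45) and Cd5 (-1.02) lie lowest, and Bcl10 (1.25) highest.

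A further 74 genes of the receptor pathway, listed by function, were tested. Of these, 9 were called lower and 4 higher, beside 2.33% of all tested genes lower and 2.95% higher. Fitted changes were negative for 40 and positive for 34, and the median was -0.01. The counts were 20 lower and 2 higher without anti-CD4 tumours 3 and 4, where 705 and 378 of all 18243 tested genes were called. The co-receptor Cd4 was 1 of the 9. Among the others were Carmil2, a regulator of Cd28 costimulation (-1.13, adjusted p = 0.0133), the adaptor Sh2d2a (-1.51), the GTPase Rhoh that aids Zap70 (-0.87), Sash3 (-0.53), the exchange factors Vav1 (-0.44) and Vav2 (-0.26), and the NF-kappaB kinase Ikbkb (-0.26). Map3k7, a kinase upstream of NF-kappaB (0.14), was among the 4 higher genes, and 0 of the 74 were called higher under upper quartile scaling. The costimulatory receptor Cd28 had -1.63 (adjusted p = 0.0679).

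Markers of other cells differed in whether, and in which direction, they changed. The 8 NK cell markers, of which 1 (Klre1) was called lower, summed to 18.0 to 52.8 CPM with PBS and 5.22 to 27.8 CPM with anti-CD4, and anti-CD4 tumours 3 and 4 had sums of 27.8 and 17.2 CPM. Several of the 34 genes, among them Cd247, Cd2, Lck, Zap70, Lat, Txk and Sh2d1a, are known from NK cells too, and the part of NK cells in the changes was not tested. Of 5 dendritic cell markers 3 were called lower, with sums of 24.6 to 44.3 CPM with PBS and 15.5 to 23.97 CPM with anti-CD4. Of 6 markers of gamma delta T cells and innate lymphoid cells, 4 were tested and 1 (Trdc) was called lower. Their sums of 71.1 to 86.8 CPM and 65.0 to 88.9 CPM were mostly Il1rl1 (74.8 and 76.5 CPM on average), while the gamma delta receptor genes were scarce, and in the anti-CD4 group Trdc stood at 48.7% of its PBS mean, with Tcrg-C1 at 45.3% and Tcrg-C2 at 47.2% but not tested. The 6 macrophage and monocyte markers (1230 to 1887 and 1231 to 1488 CPM), the 4 B cell markers tested of 5 (4.54 to 6.65 and 4.06 to 5.49 CPM) and the 3 lymph node stroma markers (4.42 to 9.58 and 4.91 to 9.34 CPM) held no called gene. Of 4 fibroblast markers, 1 (Pdgfra, 496 against 603 CPM, adjusted p = 0.0423) was called higher, with every anti-CD4 tumour above every PBS tumour, and Dcn stood at 188% of its PBS mean without being called (adjusted p = 0.0636). The sums of the 4 were 6855 to 12710 CPM with PBS and 10940 to 15410 CPM with anti-CD4. Anti-CD4 tumour 4 had the highest sums of its group for adipocyte markers (119 CPM, group median 22.8) and skeletal muscle markers (1047 CPM, group median 427). The part of these tissues in the results was not tested. No marker of these lists was at 0 in all 12 tumours.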

How the data were processed

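Per the labels' protocols, total RNA of 12 tumours was cleared of ribosomal and globin transcripts and read as 100-base pairs. Tools named in the submitters' processing notes are bcl2fastq 2.20.0.422 and kallisto, with the build GRCm38.p6. For each gene symbol the authors deposited an estimated count, and 35.7% to 37.9% of values were not whole. The sources used here do not give the annotation, gene-level summing or strand setting. GENCODE M21 matched 35973 of 35999 symbols, and 26 had become dates (0.227% of counts).

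Groups came from the treatment labels. Counts were rounded, filtered with filterByExpr, scaled by TMM and tested with the quasi-likelihood test of edgeR 4.0.16 (R 4.3.3), with 17940 genes and a biological coefficient of variation of 0.193. Ratios to CD3 used log2 CPM (prior count 2) and limma 3.58.1 with trend and robust estimates. Scripts were tested on simulated data, where only the edgeR test had to meet a set limit. The CD3 denominator was simulated with no change between groups, unlike in these data, so the ratio test was not checked for that case. No 2 libraries of a group were copies (chi-square per degree of freedom 8.01 to 61.1 over 30 pairs). Overlaps with other genes' exons touch 13 of the 34 genes.

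The genes, lists and rules were chosen with earlier results of these data known. Some genes of the wider pathway list are counted but not reported here by name. All 34 genes are accounted for, and values by tumour are given for the CD3 chains, called genes and the smallest p of each role without a call. Alternatives were DESeq2 1.42.0, weighted limma voom, RLE and upper quartile scaling, other filters, a replicate block, library total as a covariate, thinning, other library sizes and CD3 denominators, and leaving out tumours. A ratio test with each gene's own variance was added after seeing the data.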

Additional observations from a re-analysis of the deposited data

Results flagged for a closer look

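In 5 of 68 combinations of gene and group, the highest tumour stood apart, with a gap to its nearest neighbour larger, as a share of the whole range of the group, than Dixon's critical value for 6 samples. Chance passes this value in about 1 group in 20. Of the 5, 4 were PBS tumour 6. Grap2 measured 15.6 CPM there, with the next PBS tumour at 7.39 and the lowest at 6.13 CPM, a gap of 0.866 of the range. Slamf6 measured 9.49 CPM against a next value of 5.57 CPM, a gap of 0.816. Bcl11b measured 9.77 CPM against 5.79 CPM, a gap of 0.706, and Txk 9.49 CPM against 5.52 CPM, a gap of 0.63. The fifth was Themis in anti-CD4 tumour 4, at 3.6 CPM against 1.56 CPM, a gap of 0.662.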

How the results depend on the processing

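The 7 genes of the receptor pathway called lower became 14 with DESeq2, 26 with limma voom, 1 with the replicate block, 1 with library total as a covariate and 21 without anti-CD4 tumours 3 and 4, and 1 to 12 when 1 tumour was left out. None was called higher by edgeR or DESeq2, and voom called 1, Nfatc3. Leaving out 1 tumour gave 0 to 0. Of the other pathway genes, the 9 lower became 16, 25, 1, 1 and 20 in that order, and 2 to 11 without 1 tumour. The 4 higher became 0 with upper quartile scaling, 7 with DESeq2, 13 with voom, 0 without a filter, 2 with the strict filter (1 CPM in 6 tumours), 0 with the block, 1 with library sizes that leave out mitochondrial, haemoglobin and receptor segment genes, 0 with the covariate, 2 when thinned and 2 without tumours 3 and 4, and 0 to 8 without 1 tumour. Over all genes, the 418 lower became 1157, 3169, 14, 5 and 705 with DESeq2, voom, the block, the covariate and without tumours 3 and 4, 251 without a filter, and 31 to 1480 without 1 tumour. The 529 higher became 179 with upper quartile scaling (beside 325 lower), 1337, 2809, 19 and 0 with DESeq2, voom, the block and the covariate, 272 without a filter, and 29 to 1160 without 1 tumour. The median of the 34 log2 fold changes was -1.23 without tumours 3 and 4 and -1.05 to -0.63 without 1 tumour.

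Relative to CD3, the 2 genes lower became 0 with Cd3e alone, 0 with the block and 5 with each gene's own variance, and 0 to 2 without 1 tumour. The 8 higher became 3 with Cd3d and Cd3g as the denominator, 12 with Cd3e alone, 11 with own variance, 0 with the block and 14 without tumours 3 and 4, and 0 to 12 without 1 tumour. The log2 fold change of Dgkz turned sign, to -0.033 with upper quartile scaling, -0.0050 with the strict filter and -0.031 with the covariate, and it ran from -0.023 without PBS tumour 4, with -0.0022 without PBS tumour 2, to 0.056 without PBS tumour 1. Over single genes, 660 results kept direction and side of the threshold, 60 passed it newly, 54 no longer passed and 5 turned sign. The causes were not tested.

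Replicate numbers did not pair the tumours, since the correlations of same-numbered tumours ran from -0.41 to 0.23, 2 of 6 above 0.1, and 0 PBS tumours matched their own number best. With the replicate block, Cd5 stayed called (-2.22, adjusted p = 0.0432). Sit1 and Sh2d1a had few counts, 103 and 163 summed over the PBS tumours, and SEs of 0.39 each. Genes with more counts had SEs both above these (Cd3e, 0.50) and below them (Lck, 0.25). The smallest difference detectable at this depth was not tested.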

Other observations

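The CD8 co-receptor genes stood differently to the CD3 chains from the Cd4 gene. The log2 ratio of Cd8a to the mean CD3 chain level was 0.57 ± 0.33 (SD, n = 6) with PBS and 1.43 ± 0.40 with anti-CD4, a difference of 0.87 (SE 0.44, limma adjusted p = 0.0663). Every anti-CD4 ratio of Cd8a (lowest 0.96) lay above every PBS ratio (highest 0.81), and the share of all genes so separated was not counted. The difference was 1.13 for Cd8b1 (limma adjusted p = 0.0270) and -1.09 for Cd4 (adjusted p = 0.0252), with overlapping groups in both genes. The Cd4 ratio of anti-CD4 tumour 6 was 1.46, within the PBS range. These values sit beside a median of 1.15 over all tested genes, 71.3% of which were called higher per CD3 level. Neither CD8 gene lay above that median.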
